A study of Drosophila melanogaster with 4 samples.

Results

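The genes described here are those that give male seminal fluid and the mating plug their proteins. They were taken by name: every gene whose symbol begins with Acp and a digit (other than those beginning Acp65A), Sfp, Mst57D, BG642 or Ebp, and *msopa*. This gave 56 genes of the 13955 in the files, 51 of them of accessory gland and seminal fluid families and 3 of the ejaculatory bulb family (*Ebp*, *EbpII* and *EbpIII*), with *msopa* and *Acp1* beside them. *Acp1*, which met the rule by its letters only, encodes an adult cuticle protein. It had no UMI in any library, and neither had *Sfp87B*, so that 54 members were detected.

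Seminal fluid of the fly is made in a pair of accessory glands, in the ejaculatory duct and in the ejaculatory bulb. The glands hold many main cells and few secondary cells, and both secrete peptides that act on the mated female, on ovulation, sperm storage and remating among others. The bulb supplies the proteins of the mating plug and a male pheromone. None of these organs belongs to the abdominal cuticle, which by the paper's account holds tissues such as oenocytes, adipose tissue and muscle.

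The data were single-nucleus RNA-seq counts of unique molecular identifiers (UMIs) from the abdominal cuticle of adult male flies, 2 tsc1,tsc2 libraries and 2 EGFP libraries. The tsc1,tsc2 flies carried UAS-Tsc1, UAS-Tsc2/+ and the EGFP flies UAS-2xEGFP/+, and both carried *PromE-GAl4, tub-Gal80ts/+* in a w1118 background. They were kept at 18 °C and moved to 29 °C for 4 days to switch the transgenes on. Each library was made from 40 pooled abdomens, from which the intestines and reproductive organs had been taken out by hand, so that n is 2 pools a genotype. *PromE-Gal4* is an oenocyte driver, and it is also known to be active in the male accessory gland. The libraries held 7594 and 2267 nuclei for tsc1,tsc2, and 7213 and 8067 nuclei for EGFP, with 1449112 to 3972281 UMIs a library and medians of 372 to 468 UMIs a nucleus. Any pair of libraries shared 15 to 77 cell barcodes. The genotypes were deposited in separate matrices, so that genotype and any step done per matrix cannot be told apart. The paper calls the 2 EGFP libraries biological replicates and uses no such term for the tsc1,tsc2 libraries. Whether the flies of the 2 libraries of a genotype were reared apart is not stated in the sources used here. The p-values therefore measure the spread between these pools.

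One library stood apart before any comparison. Members made up 2.08% and 0.994% of all UMIs in the tsc1,tsc2 libraries, 0.743% in EGFP replicate 1 and 0.04997% in EGFP replicate 2. Without *EbpIII* the UMIs of all members came to 70979 and 10944 in the tsc1,tsc2 libraries, against 20992 and 125 in EGFP replicates 1 and 2. EGFP replicate 2 was the lowest library for 53 of the 54 members detected, whereas it was the lowest for 25.1% of the 12177 genes with a UMI. The exception was *Sfp36F*, with 8 UMIs in all and none in either EGFP replicate 2 or tsc1,tsc2 replicate 2. Over all nuclei, fewer nuclei of a kind and less RNA per nucleus cannot be told apart.

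The 3 ejaculatory bulb genes and *Sfp60F* had the highest UMI totals of the set. *EbpII*, which encodes a protein of the mating plug (2R, 25173568 to 25174230), had 6114 and 1946 CPM (UMIs scaled to an equal total for every library) in the tsc1,tsc2 libraries, against 1655 and 1.53 CPM in EGFP replicates 1 and 2. The last value rests on 6 UMIs, and the exact Poisson interval at the 95% level, which covers counting error only, was 0.561 to 3.33 CPM. *Ebp*, another plug protein gene (2R, 25175126 to 25176715), had 2282 and 762 CPM in the tsc1,tsc2 libraries, against 597 and 1.78 CPM in the EGFP libraries. In both genes 3 libraries were within 4-fold of each other and EGFP replicate 2 stood 335-fold (*Ebp*) and 1082-fold (*EbpII*) below its own replicate.

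*EbpIII* was the exception among them. It encodes a small protein of the insect chemosensory (OS-D) family (2R, 24026172 to 24027518) and had 2956 and 2386 CPM in the tsc1,tsc2 libraries, against 979 and 468 CPM in the EGFP libraries. EGFP replicate 1 was here only 2.09-fold above EGFP replicate 2, and *EbpIII* was the one member with over 20 UMIs in that library (1836 UMIs). The genotypes did not overlap.

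Among the seminal fluid families the highest gene was *Sfp60F*, which was above *EbpII* in tsc1,tsc2 replicate 2 and in EGFP replicate 1 and lies beside *EbpII* and *Ebp* (2R, 25172245 to 25172695). It had 5202 and 2493 CPM in the tsc1,tsc2 libraries, against 1950 and 5.10 CPM in the EGFP libraries. *Sfp24Bb* had 671 and 266 CPM in the tsc1,tsc2 libraries, against 237 and 0.510 CPM in the EGFP libraries. *Acp24A4* had 437 and 224 CPM in the tsc1,tsc2 libraries, against 214 CPM and no UMI in the EGFP libraries. EGFP replicate 1 was therefore at least 280-fold higher than EGFP replicate 2 for *Acp24A4*, taking 3 UMIs in that library as the limit of a count of 0. In each of these genes the tsc1,tsc2 libraries lay above both EGFP libraries, tsc1,tsc2 replicate 2 by less than 1.5-fold over EGFP replicate 1.

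The products for which a role in the mated female is best known were lower. *Acp26Aa*, or ovulin, which stimulates ovulation, had 113 and 78.0 CPM in the tsc1,tsc2 libraries, against 52.5 CPM and no UMI in the EGFP libraries. *Acp36DE*, a glycoprotein needed for sperm storage, had 84.1 and 66.9 CPM in the tsc1,tsc2 libraries, against 56.2 and 0.255 CPM in the EGFP libraries. *Acp62F*, a protease inhibitor, had 60.2 and 31.1 CPM in the tsc1,tsc2 libraries, against 37.2 CPM and no UMI in the EGFP libraries. All 3 were thus at similar levels in the same 3 libraries, and the genotypes overlapped only for *Acp62F*.

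Small peptides of the gland gave the same order of libraries in part. *Mst57Da* had 375 and 95.9 CPM in the tsc1,tsc2 libraries, against 134 and 2.04 CPM in the EGFP libraries. *BG642312* had 212 and 71.8 CPM in the tsc1,tsc2 libraries, against 113 and 3.06 CPM in the EGFP libraries. *Acp95EF* had 66.0 and 53.8 CPM in the tsc1,tsc2 libraries, against 83.8 and 4.08 CPM in the EGFP libraries, and *Acp98AB* had 26.7 and 15.9 CPM in the tsc1,tsc2 libraries, against 61.4 and 0.255 CPM in the EGFP libraries. For these 4 genes EGFP replicate 1 lay above tsc1,tsc2 replicate 2, and for *Acp95EF* and *Acp98AB* it was the highest of all. *msopa*, a male-specific gene named for its opa repeats, had 190 and 93.2 CPM in the tsc1,tsc2 libraries, against 63.9 and 0.765 CPM in the EGFP libraries.

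*Acp54A1* was ordered differently from the others (2R, 17133445 to 17133750). It was highest in the smallest library, with 164 and 557 CPM in tsc1,tsc2 replicates 1 and 2, against 38.7 and 1.27 CPM in the EGFP libraries. *Acp32CD* was ordered the other way within the genotype, with 128 and 13.1 CPM in tsc1,tsc2 replicates 1 and 2, against 43.9 CPM and no UMI in the EGFP libraries. Across the set 50 of the 54 members were higher in tsc1,tsc2 replicate 1 than in tsc1,tsc2 replicate 2. The share of all genes with that order was not counted. In EGFP replicate 2 the number of members with no UMI was 25, 17 had 1 to 3 UMIs and 11 had 4 to 20.

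**Figure D1:**
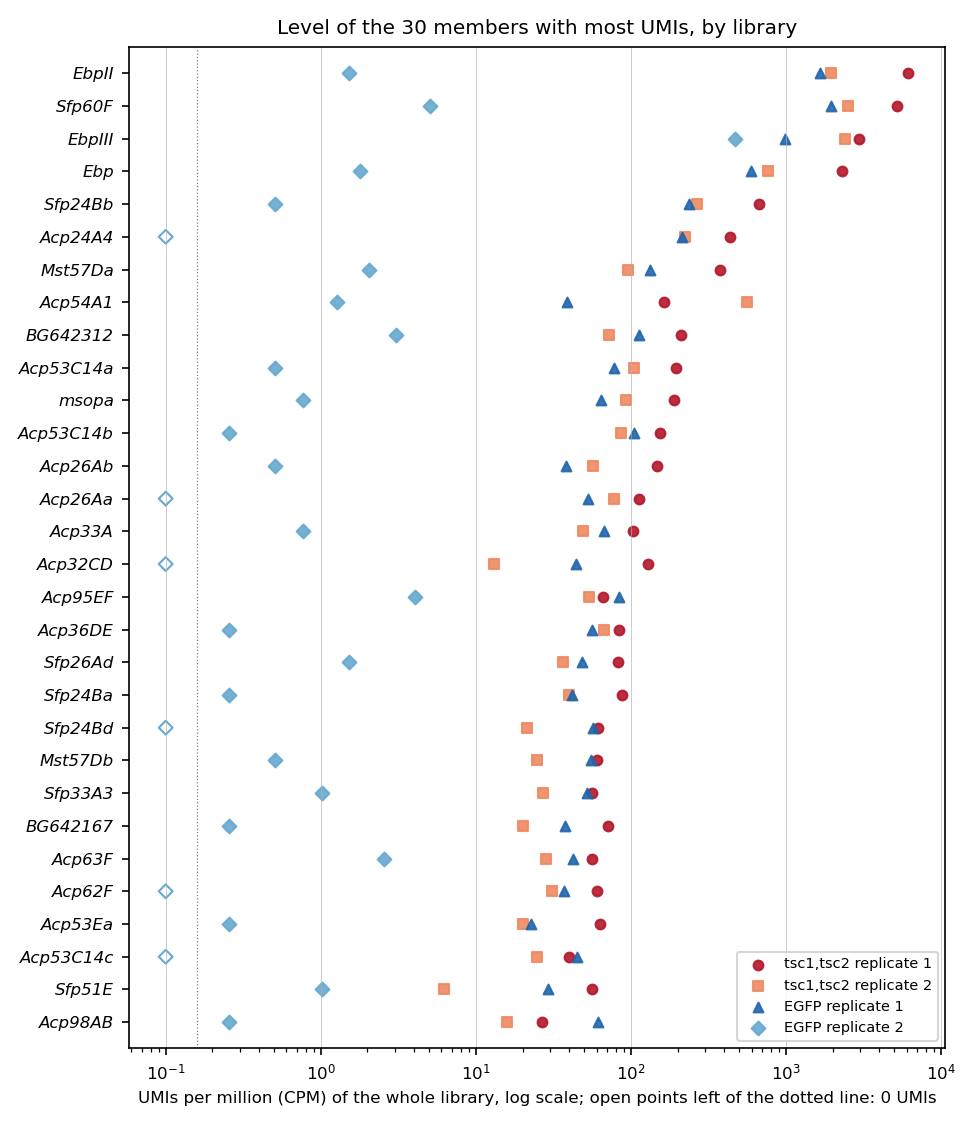
CPM of the 30 members with most UMIs (log axis) in each of the 4 libraries, 1 point a library, with open points for no UMI. EGFP replicate 2 lies far to the left of the other 3 libraries for every gene plotted but EbpIII, where it is at 468 CPM beside 979 CPM in EGFP replicate 1.

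The rest of the 30 members with most UMIs fell within these patterns. *Acp53C14a*, *Acp53C14b*, *Acp53C14c* and *Acp53Ea*, a tandem family on 2R, had 32.3 ± 10.6 to 149 ± 62.9 CPM in the tsc1,tsc2 libraries and 11.5 ± 15.9 to 52.3 ± 73.6 CPM in the EGFP libraries (mean ± SD, n = 2 each). The SD of the EGFP libraries exceeded their mean in all 4 genes. *Acp26Ab* had 147 and 57.3 CPM in the tsc1,tsc2 libraries, against 38.4 and 0.510 CPM in the EGFP libraries. *Acp33A*, *Acp63F*, *Sfp24Ba*, *Sfp24Bd*, *Sfp26Ad*, *Sfp33A3*, *Sfp51E*, *Mst57Db* and *BG642167* had mean levels of 31.3 to 76.2 CPM in the tsc1,tsc2 libraries and 15.1 to 33.7 CPM in the EGFP libraries. None of these 9 had genotypes that did not overlap. Of the members 17 overlap another counted gene, among them *Acp95EF* with *Spase22-23*, *Acp36DE* with *Fas3* and *Acp63F* with *Scsalpha1*. The genes of these pairs lie on opposite strands. Only *Sfp87B*, which had no UMI, overlaps a counted gene on its own strand (*svp*). Reads were counted with Cell Ranger, and how far it separated the genes of a pair was not tested.

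To ask whether the genotypes differed, UMIs were summed over all nuclei of a library and tested with edgeR's quasi-likelihood test (Benjamini-Hochberg adjusted over all genes, threshold 0.05, n = 2 libraries each). None of the 50 members tested passed, and none of the 9546 genes tested did (0%). At an unadjusted p under 0.05 were 3 members and 1456 genes (15.3%). With DESeq2 1 member, *EbpIII*, was called, beside 381 of 9108 genes (4.18%, and 2.34% called higher in tsc1,tsc2). No member was called by edgeR with no filter on low counts (0.304% of genes called, 0.156% higher in tsc1,tsc2), with at least 10 counts in every library (0.75% and 0.44%) or with a replicate block (0.576% and 0.314%). The 3 members were *EbpIII*, with a log2 difference of 1.83 ± 0.42 (SE; edgeR unadjusted p = 0.0066, adjusted p = 0.18; DESeq2 adjusted p = 0.0033, edgeR adjusted p of 0.081 to 0.61 over its alternatives), *Acp54A1*, with 4.18 ± 1.49 (edgeR adjusted p = 0.29), and *Sfp93F*, with 2.82 ± 1.10 (edgeR adjusted p = 0.32). The fitted difference was positive for 48 members and negative for 2, with a median of 1.198 beside 0.02 over all genes, and its standard error was large: 2.19 ± 2.18 for *EbpII* and 1.90 ± 1.97 for *Sfp60F*.

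The test turned on which EGFP library stood for the control. Without EGFP replicate 1, 35 of 51 members were called, all higher in tsc1,tsc2, beside 150 of 10088 genes called (1.49%, and 1.28% higher in tsc1,tsc2), and their median log2 difference was 7.69. Without EGFP replicate 2, 0 of 51 members were called, beside 0 of 9970 genes (0%), with 4 members and 769 genes (7.71%) at an unadjusted p under 0.05 in edgeR, and the median was 0.14, with 31 members positive and 20 negative. In both fits the lone EGFP library was assumed to vary like the others. Levels lay above both EGFP libraries in both tsc1,tsc2 libraries for 16 of 54 members, against 25% of all genes with a UMI. Against EGFP replicate 1 alone, 44 of 54 members were higher in tsc1,tsc2 replicate 1 and 16 of 54 in tsc1,tsc2 replicate 2. These comparisons with EGFP replicate 1 alone were not counted over all genes, so the member counts have no background beside them.

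**Figure D2:**
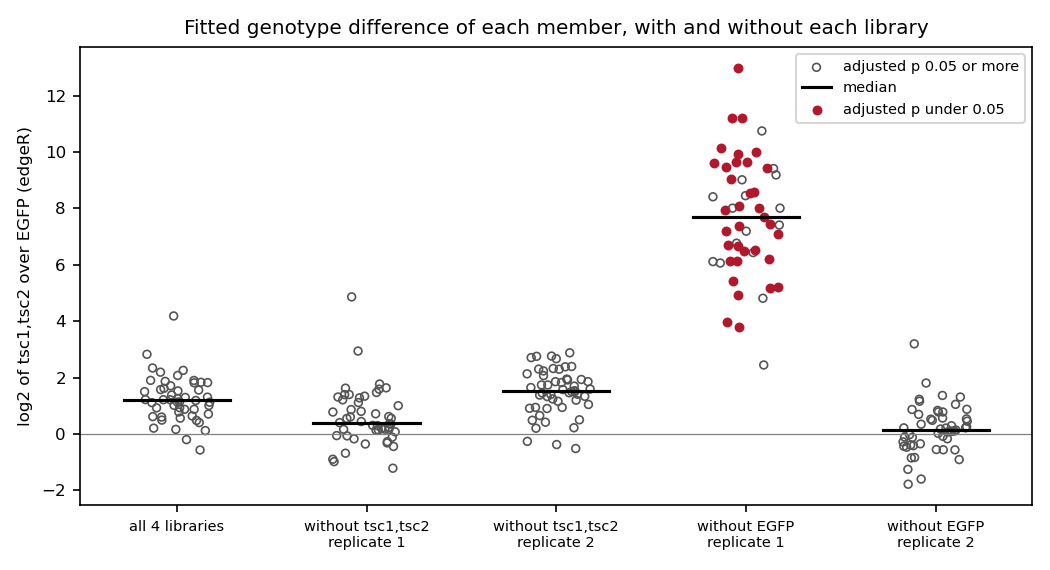
Log2 difference of tsc1,tsc2 over EGFP in edgeR for each member tested (1 point a member, filled where the adjusted p is under 0.05, black bar at the median), with all 4 libraries and with each left out. The median is 1.198 with all libraries, 7.69 without EGFP replicate 1 and 0.14 without EGFP replicate 2.

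Other genes of the male tract that are not members moved with EGFP replicate 2 as well. Of 29 such genes listed, 27 were in the files, and 23 of them were lowest in EGFP replicate 2. *Obp56g*, an odorant-binding protein gene of the male tract, had 1929 and 619 CPM in the tsc1,tsc2 libraries, against 632 and 4.59 CPM in the EGFP libraries. *bond*, a fatty acid elongase gene needed for a pheromone of the ejaculatory bulb, had 219 and 146 CPM in the tsc1,tsc2 libraries, against 136 and 10.2 CPM in the EGFP libraries. *Dup99B*, a relative of sex peptide named for the ejaculatory duct, had 61.7 and 192 CPM in the tsc1,tsc2 libraries, against 25.5 and 0.255 CPM (1 UMI) in the EGFP libraries. *Spn38F*, a serpin gene, had 73.3 and 57.3 CPM in the tsc1,tsc2 libraries, against 67.6 and 0.510 CPM (2 UMIs) in the EGFP libraries. The 4 that were not lowest there were *frma*, *lectin-46Ca*, *lectin-46Cb* and *dve*. *frma* had 102 and 86.3 CPM in the tsc1,tsc2 libraries, against 69.7 and 77.2 CPM in the EGFP libraries. *Est-6*, an esterase gene of the seminal fluid, was lowest in EGFP replicate 2 but by less, and had 125 and 148 CPM in the tsc1,tsc2 libraries, against 125 and 85.9 CPM in the EGFP libraries. The summed level of the 9 adipose tissue markers (*apolpp*, *Pli* and *AkhR* among them) was 27354 and 23661 CPM in the tsc1,tsc2 libraries, against 36726 and 34375 CPM in the EGFP libraries, and that of the 9 spermatogenic markers (*soti*, *djl* and *Mst84Da* among them) was 770 and 651 CPM in the tsc1,tsc2 libraries, against 247 and 214 CPM in the EGFP libraries. The part of tissue makeup in the levels of the members was not tested.

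Which nuclei held the members was read from the 16 deposited clusters of the EGFP nuclei, numbered 0 to 15. The clusters were made from these nuclei and genes, so the levels are a description with no test. The 49 members with at least 20 UMIs in EGFP replicate 1 were ranked by cluster, a cluster being the leading one where its CPM was highest among those with at least 5 UMIs of the gene. The members just inside that limit, *Sfp23F* and *Sfp26Ac*, had 23 UMIs each, and those just outside, *Sfp38D* and *Sfp33A4*, had 13 each. Cluster 14, of 69 nuclei in that library, led for 9 members, and cluster 15, of 31 nuclei, led for 35. *EbpIII* was led by cluster 12, and the other 4 members by clusters 0, 1 and 2, with folds of 0.874 to 1.69 over the other nuclei and at most 24 UMIs there. For all 4 of these the limit of 5 UMIs set the leading cluster. *Sfp77F* and *Sfp53D* each had 265 CPM in cluster 15 from 4 UMIs. Clusters 0 and 2, which led for them, had 8.05 and 20.1 CPM. *Sfp23F* and *Acp54A1* each had 66.2 CPM in cluster 15 from 1 UMI. Clusters 1 and 2, which led for them, had 10.0 and 60.2 CPM.

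The 9 members led by cluster 14 were *EbpII*, *Sfp60F*, *Ebp*, *Sfp24Ba*, *Sfp24Bb*, *Sfp24Bc*, *Sfp24Bd*, *Acp24A4* and *Sfp93F*. Together they had 258253 CPM in cluster 14 of EGFP replicate 1. *Sfp60F* alone had 107028 CPM there, *EbpII* 85864 CPM and *Ebp* 38101 CPM, with folds of 131, 115.1 and 198 over all other nuclei of that library. *EbpII* had a UMI in 97.1% of cluster 14 nuclei and in 1.0% of cluster 0 nuclei, whose median totals were 453 and 382 UMIs. Cluster 14 nuclei also held *Obp56g*, at 38791 CPM, and *Est-6*, at 2185 CPM, but no UMI of *bond*, *SP* or *Dup99B*.

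The 35 members led by cluster 15 included every *Mst57D* and *BG642* gene, *Acp26Aa*, *Acp26Ab*, the *Acp53* family and *msopa*, and had 125240 CPM together in its 31 nuclei. *Mst57Da* was the highest, at 13180 CPM, followed by *BG642312*, at 11590 CPM, *Acp53C14b*, at 10729 CPM, and *Acp95EF*, at 10663 CPM. *Acp26Aa* had the highest share of its UMIs there, 60.8%, and was 333-fold above the other nuclei, and the median share over the 35 members was 27.5%. *Acp53C14b* had a UMI in 30 of the 31 nuclei. *SP*, the sex peptide that makes mated females refuse further males, had 662 CPM there from 10 UMIs, and the serpin genes *Spn38F* and *Spn28F* had 4106 and 3047 CPM. *EbpIII* had none. The 6 Malpighian tubule markers (*Uro*, *Mur18B* and *whe* among them) summed to 4172 CPM in cluster 15, beside 996 CPM over the whole library.

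The bulb family was split between clusters. *EbpIII* had 27147 CPM in cluster 12 (50 nuclei) and 15293 CPM in cluster 11 (79 nuclei) of EGFP replicate 1, and 978 CPM in cluster 14, where *EbpII* and *Ebp* were highest. *bond* had 8392 CPM in cluster 11 and no UMI in clusters 12 and 14. *EbpII* had 26 UMIs in cluster 11 and none in cluster 12. *Abd-B*, the Hox gene of the most posterior segments, had 1202 CPM in cluster 11, 3480 CPM in cluster 12 and 748 CPM in cluster 14, beside 66.2 CPM (1 UMI) in cluster 15. So the 4 genes listed as ejaculatory bulb markers were not high in the same nuclei, and no cluster is given that name here.

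**Figure D3:**
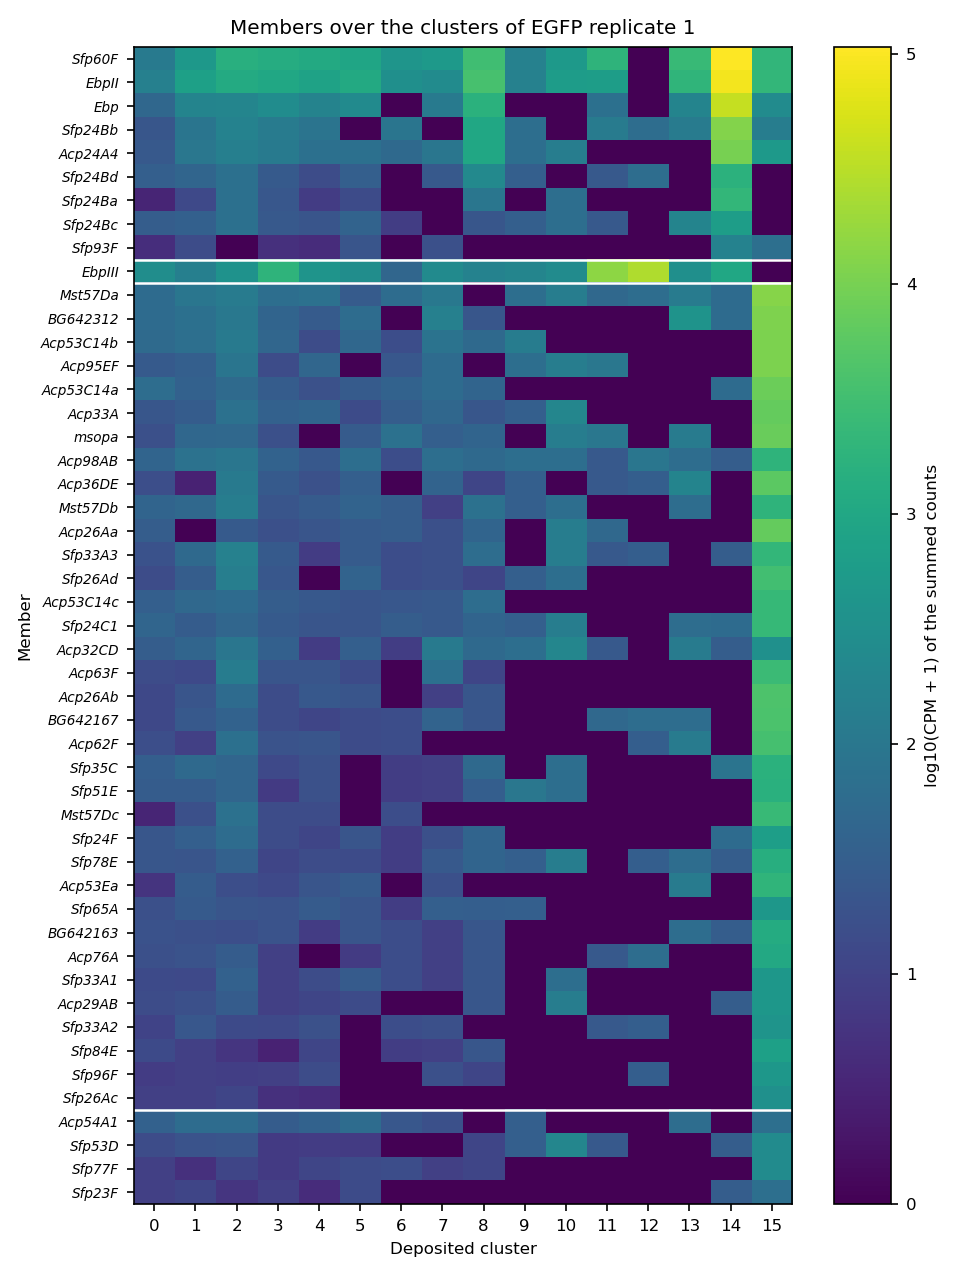
Log10 of CPM + 1 of the 49 members with at least 20 UMIs in EGFP replicate 1 (rows) over deposited clusters 0 to 15 (columns), with white lines between members led by cluster 14, by cluster 12, by cluster 15 and by other clusters. The cluster 14 and cluster 15 columns are bright over different rows, and EbpIII is bright in clusters 11 and 12.

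EGFP replicate 2 gave nearly none of this. Its clusters 14 and 15 held 11 and 12 nuclei, the 9 cluster 14 members had 6 UMIs in the first and the 35 cluster 15 members 9 UMIs in the second, against 8981 and 1891 UMIs in EGFP replicate 1. The adipose markers summed to 38401 and 23128 CPM in clusters 14 and 15 of EGFP replicate 2, against 18892 and 16756 CPM in those of EGFP replicate 1, so nuclei under the same cluster number differed between the libraries. *EbpIII* was again different. In cluster 3, where the cuticle protein markers (*Cpr49Ae*, *CG14661* and *Cpr49Ac* among them) were highest, it had 1898 CPM and 2370 CPM in EGFP replicates 1 and 2, from 949 and 1125 UMIs. A UMI of *EbpIII* was in 20.8% and 27.0% of cluster 3 nuclei of EGFP replicates 1 and 2, or 17.2% and 19.7% with every nucleus thinned to 200 UMIs, against 2.4% and 2.9% of cluster 0 nuclei unthinned. Its cluster 11 and 12 levels fell to 1083 and 1291 CPM in EGFP replicate 2. The share of all *EbpIII* UMIs of the library that lay in cluster 3 was 29.8% in EGFP replicate 1 and 61.3% in EGFP replicate 2.

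In EGFP replicate 1 the cluster 14 members had their highest level outside cluster 14 in cluster 8. Its 280 nuclei in EGFP replicate 1 had adipose markers at 70749 CPM, close to 74780 CPM in cluster 0, and 10764 CPM of the cluster 14 members, 79.3% of nuclei having a UMI of one. *EbpII* made up 34.8% of these UMIs in cluster 8 and 33.2% in cluster 14, and *Ebp* 15.3% and 14.8%. *Sfp60F* was lower in cluster 8, at 28.2% against 41.4% in cluster 14. *Sfp24Bb* was higher, at 9.21% against 4.85%, as was *Acp24A4*, at 9.30% against 3.92%. Only 1 of its nuclei had 50 or more UMIs of the cluster 14 members, against 57 in cluster 14. Cluster 8 held 11 nuclei of EGFP replicate 2, with 4 such UMIs.

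The members were also counted at a low level in all other clusters of EGFP replicate 1. The cluster 14 members ranged from 125 CPM (cluster 12) to 5232 CPM (cluster 15) in clusters other than 8 and 14, and the cluster 15 members from 470 CPM (cluster 12) to 2194 CPM (cluster 2) in clusters other than 15. For the cluster 15 members 40.3% of cluster 2 nuclei and 21.5% of cluster 0 nuclei had a UMI, with medians of 310 and 382 UMIs a nucleus. These shares have to be read with the lowest count that a nucleus could show. Among nuclei with any *EbpII* the lowest count was 8 and 5 in the tsc1,tsc2 libraries, and 4 and 1 in EGFP replicates 1 and 2, and for *Sfp60F* it was 9 and 6 in the tsc1,tsc2 libraries, and 5 and 1 in the EGFP libraries. For both genes the floor was higher in libraries with a higher level, and shares of nuclei with a UMI are therefore not comparable between libraries for these genes. The authors had subtracted ambient RNA from the counts, and its part in the floor was not tested.

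A nucleus was called a carrier where it had at least 5 UMIs of the 51 gland members or at least 5 of the 3 bulb members. Gland carriers were 1013 and 106 nuclei in the tsc1,tsc2 libraries, 13.3% (Wilson interval at the 95% level 12.6 to 14.1) and 4.68% (3.88 to 5.62), against 428 and 1 nuclei in the EGFP libraries, 5.93% (5.41 to 6.503) and 0.0124%. *Sfp60F* is among the gland members by its name. As its lowest count was 5 or more in the tsc1,tsc2 libraries and in EGFP replicate 1, each of the 728 and 63 nuclei of tsc1,tsc2 and 328 of EGFP replicate 1 that had any of it was a gland carrier. The limit on comparing shares between libraries therefore holds for carriers too. Bulb carriers were 1737 and 225 in the tsc1,tsc2 libraries, 22.9% and 9.93%, against 597 and 98 in the EGFP libraries, 8.28% and 1.21%. All 31 nuclei of cluster 15 and 67 of the 69 of cluster 14 were gland carriers in EGFP replicate 1, but the largest number, 112, lay in cluster 2. Bulb carriers there were 119 in cluster 3, 83 in cluster 2, 68 in cluster 14, 60 in cluster 1, 58 in cluster 8, 48 in cluster 11, 45 in cluster 0 and 34 in cluster 12. Of the 98 bulb carriers of EGFP replicate 2, 69 were in cluster 3. At least 10 UMIs, thinning to 200 UMIs or at least 3 UMIs in place of 5 moved these counts by over 1.5 times in some libraries but left EGFP replicate 2 with 0 or 1 gland carriers.

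Nuclei with very many UMIs of the members were counted for each group. With a threshold of 50 UMIs, set after the counts were seen, 178 and 23 nuclei in the tsc1,tsc2 libraries, against 67 and 0 in the EGFP libraries, passed for the cluster 14 members. For the cluster 15 members 43 and 3 nuclei of the tsc1,tsc2 libraries passed, against 11 and 0 of the EGFP libraries. Over the 4 libraries 1 nucleus, in tsc1,tsc2 replicate 1, passed for both, and nuclei this rare would seldom coincide in any case. The median nucleus with 50 or more UMIs of one group had 0 UMIs of the other in all 3 libraries that had such nuclei. UMIs of both groups were 0 in 4193 of 7594 and 1804 of 2267 tsc1,tsc2 nuclei, and 4628 of 7213 in EGFP replicate 1. A median of 0 is therefore that of all nuclei too, and does not show that the groups exclude each other. Nuclei with 50 or more UMIs of the cluster 14 members held a median of 26.8%, 25.2% and 25.9% of their UMIs from these members, in tsc1,tsc2 replicates 1 and 2 and EGFP replicate 1. The 268 nuclei rich in cluster 14 members and the 57 rich in cluster 15 members had adipose markers at 11521 and 5535 CPM, against 31538 CPM over all nuclei. Nuclei rich in cluster 14 members carried 60.4%, 83.9% and 63.0% of all UMIs of those members, in tsc1,tsc2 replicates 1 and 2 and EGFP replicate 1. Nuclei rich in cluster 15 members carried 51.8%, 74.2% and 26.4% of the UMIs of theirs in the same libraries.

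**Figure D4:**
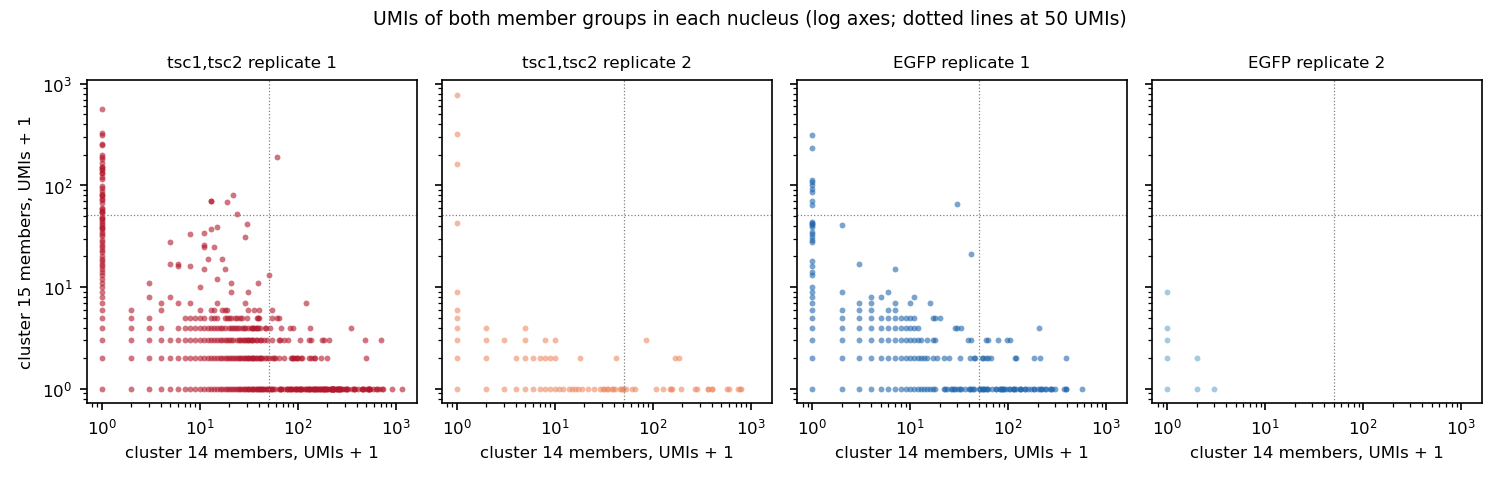
UMIs of the 9 cluster 14 members (x) and of the 35 cluster 15 members (y) in single nuclei of each library, both plus 1 on log axes; a point stands for 1 or more nuclei with that pair of counts. Nuclei rich in one group lie along the axes, 1 nucleus is past 50 UMIs of both, and EGFP replicate 2 has no nucleus past 50 UMIs of either.

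Whether the same nuclei held the members in tsc1,tsc2 was asked without the members themselves. Each nucleus of all 4 libraries was given the control cluster whose summed profile, members left out, had the highest multinomial likelihood. This returned the deposited cluster for 85.4% of the EGFP nuclei, for 77.5% in cluster 14 and 83.7% in cluster 15. Profiles of one EGFP library returned 75.2% and 76.4% of the clusters of the other, but 0 of 11 cluster 14 and 0 of 12 cluster 15 nuclei of EGFP replicate 2, and 1 of 69 cluster 14 and 12 of 31 cluster 15 nuclei of EGFP replicate 1. Nuclei nearest cluster 14 numbered 84 and 9 in the tsc1,tsc2 libraries, against 57 and 5 in the EGFP libraries, and those nearest cluster 15 numbered 45 and 3, against 30 and 7.

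By the nearest cluster where each member was highest, most of the grouping found in EGFP replicate 1 was there in both tsc1,tsc2 libraries. Of the 9 cluster 14 members, 8 were highest in nuclei nearest cluster 14 in each tsc1,tsc2 library, all but *Sfp93F*. Of the 35 cluster 15 members, all were highest in nuclei nearest cluster 15 in tsc1,tsc2 replicate 1 and 27 in tsc1,tsc2 replicate 2, where 3 nuclei were nearest cluster 15 and 29 of the 35 had 5 UMIs in any class. *EbpIII* was highest in nuclei nearest cluster 12 in both tsc1,tsc2 libraries. Nuclei with 50 or more UMIs of the cluster 14 members were often nearest another cluster. In the tsc1,tsc2 libraries 83 of 178 and 9 of 23 were nearest cluster 14, against 51 of 67 in EGFP replicate 1. For the cluster 15 members 31 of 43 and 2 of 3 were nearest cluster 15, against 11 of 11. The cluster 14 members had 400014 and 452278 CPM in the nuclei nearest cluster 14 of the tsc1,tsc2 libraries, against 274625 and 1320 CPM in those of the EGFP libraries. The cluster 15 members had 206569 and 419687 CPM in nuclei nearest cluster 15 of the tsc1,tsc2 libraries, against 131070 and 0 CPM in the EGFP libraries. *EbpIII* in nuclei nearest cluster 3 had 4489 and 3399 CPM in the tsc1,tsc2 libraries, against 2063 and 2561 CPM in the EGFP libraries, so that the genotypes did not overlap there, in 1503 and 451 nuclei of tsc1,tsc2 against 773 and 751 of EGFP. These class levels were not tested for a difference.

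**Figure D5:**
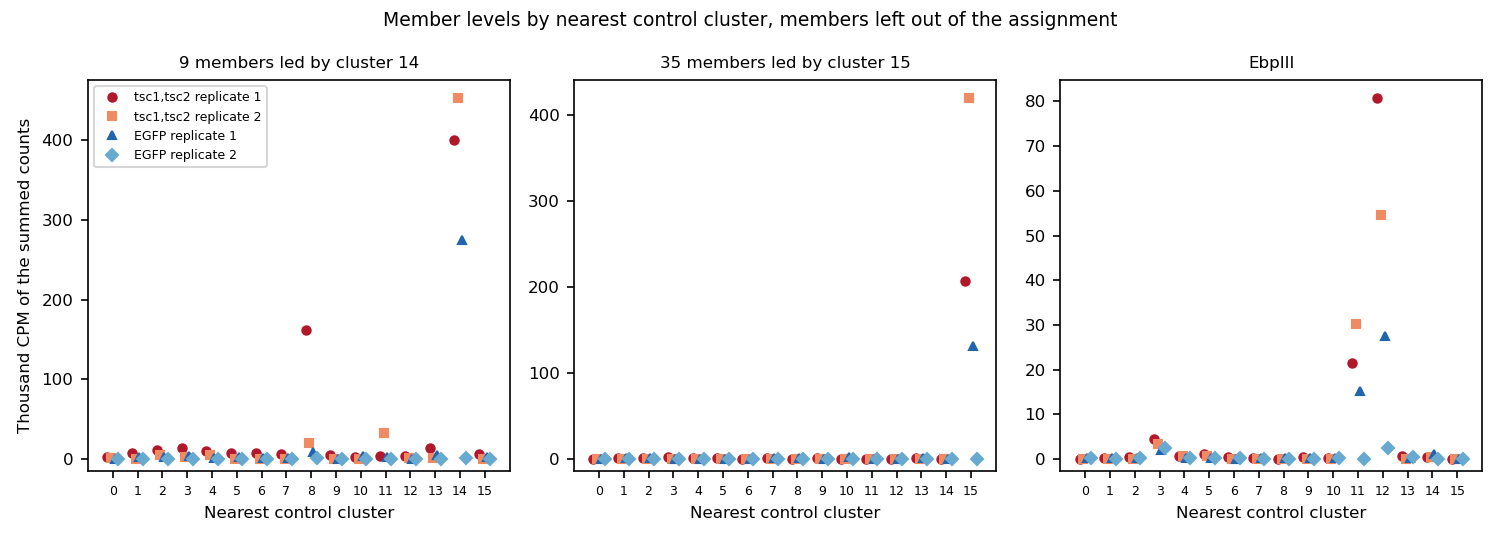
Level (CPM, in units of 1000) of the cluster 14 members, the cluster 15 members and EbpIII in the nuclei of each library given to each control cluster with all members left out, 1 point a library and class. The members led by a cluster in EGFP replicate 1 peak in the same class in tsc1,tsc2 replicates 1 and 2. The class 8 points of tsc1,tsc2 stand for 7 and 1 nuclei.

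*Acp54A1* and *Acp32CD* were concentrated in 2 further sets of nuclei, which were picked after their values were seen and are given with no test. At least 10 UMIs of *Acp54A1* were in 10 and 16 nuclei of the tsc1,tsc2 libraries, against 1 and 0 of the EGFP libraries, and these 27 nuclei held 58.8% of all its UMIs, up to 137 in a nucleus. They also held *Obp51a* (25 of 27 nuclei), *Anp*, which encodes the antibacterial peptide andropin of the ejaculatory duct (20 of 27), *Dup99B* (20 of 27) and *Sfp93F* (16 of 27). *Dup99B* had 19877 CPM there, against 28.1 CPM in the other nuclei of the 3 libraries with such nuclei. No UMI of *Sfp60F*, *Mst57Da* or *Acp32CD* was among them, and *EbpII* was in 1 of them. *Sfp93F*, which had 25 UMIs in EGFP replicate 1, had its highest level in nuclei nearest cluster 5 in both tsc1,tsc2 libraries, as *Acp54A1* had, and 12 of these 27 nuclei were nearest cluster 5. Muscle markers (*Mhc*, *sls* and *Act79B* among them), which were highest in cluster 5 of EGFP replicate 1, summed to 2683 CPM in the 27 nuclei, against 6001 CPM over all nuclei.

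At least 10 UMIs of *Acp32CD* were in 10 and 0 nuclei of the tsc1,tsc2 libraries, against 1 and 0 of the EGFP libraries. All 11 held *CG9029*, at 88381 CPM against 105 CPM in other nuclei, and 10 held *CG17575*, a cysteine-rich secretory protein of the seminal fluid that is needed for the lasting action of sex peptide. Of these nuclei 4 had 50 or more UMIs of the cluster 15 members, a group that *Acp32CD* belongs to, *Mst57Da* was in 4 and *Dup99B* in none. No nucleus had 10 UMIs of both *Acp54A1* and *Acp32CD*. *Acp32CD* had only 3.50% of its UMIs in cluster 15 of EGFP replicate 1, the lowest share among the members led by that cluster, and with nuclei thinned to 200 UMIs cluster 7 led in its place.

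The leading clusters were also read along the chromosomes. By an Ensembl annotation of the release 6 assembly, 25 members lie on 2L, 11 on 2R, 10 on 3L, 10 on 3R and none on X. Taking members with no more than 20000 bases between them, 26 members formed 8 groups of neighbours. Of the 7 groups with more than 1 ranked member, 5 were led by a single cluster throughout, 3 of them by cluster 15, which led for 35 of the 49 ranked members in all. *Sfp60F*, *EbpII* and *Ebp* lie within 4471 bases (2R, 25172245 to 25176715) and were all led by cluster 14, as were *Sfp24Ba*, *Sfp24Bd*, *Sfp24Bb* and *Sfp24Bc* within 2605 bases (2L, 3667977 to 3670581). *Mst57Dc*, *Sfp96F*, *Mst57Db* and *Mst57Da* lie within 2579 bases (3R, 25829321 to 25831899) and were led by cluster 15. The exceptions were *Acp24A4*, led by cluster 14, beside *Sfp24C1*, led by cluster 15, and *Sfp53D*, led by cluster 2, beside the 4 *Acp53* genes. *Sfp53D* had 265 CPM in cluster 15, from 4 UMIs and so short of the 5 needed to lead, against 20.1 CPM in cluster 2, and it was highest in nuclei nearest cluster 15 in both tsc1,tsc2 libraries, at 1554 and 2289 CPM. The *Sfp24B* genes lie inside *Drgx* on the other strand.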

How the data were processed

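The authors aligned reads with Cell Ranger 3.1.0 to a pre-mRNA reference built on FlyBase and subtracted ambient RNA with SoupX at 1 fixed contamination value for every library. Nuclei beyond 2 SD of the mean log UMI total were removed as doublets or dead cells. The EGFP libraries were then corrected for batch effects with Harmony, and their nuclei were clustered with Seurat 3.1.2. The authors deposited 1 matrix of UMI counts per genotype, whole numbers per gene and nucleus, and the cluster of each EGFP nucleus. No doublet caller was run here.

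Here counts were summed per library, or per library and cluster, and given as CPM of all UMIs. Summed counts were tested with edgeR 4.0.16 (TMM, filterByExpr, quasi-likelihood), with DESeq2 1.42.0 as an alternative, beside other filters, scalings, a replicate block and each library left out. The edgeR test was also run on simulated counts. Their spread between replicates was set alike for every gene, so that run does not show how the test behaves for the members. Depth limits precision most in tsc1,tsc2 replicate 2, of 1449112 UMIs, where 1 UMI is about 0.690 CPM. In EGFP replicate 2, of 3924035 UMIs, 1 UMI is about 0.255 CPM. No sequences are shown. Genes were named by rule: the 30 members with most UMIs, *msopa*, *Acp1* and called members, the 8 other male tract genes with most UMIs and the first 3 of each marker list. Others were chosen after their values were seen. The members and lists were chosen with earlier results of these data known. Nuclei were thinned at random to 200 UMIs once.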

Additional observations from a re-analysis of the deposited data

How the results depend on the processing

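No gene was called between genotypes by edgeR with all 4 libraries, and none with library totals alone or with nuclei of at least 300 UMIs. DESeq2 called 381 genes, no filter on low counts gave 37, at least 10 counts in every library 58, and the fit with a replicate block 55. Members called were 1 (*EbpIII*) with DESeq2 and 0 in the other settings that kept all 4 libraries. Under the replicate block all 50 members tested were positive, with a median log2 difference of 1.95 beside 0.008 over all genes. In that edgeR fit 15 members were at an unadjusted p under 0.05, beside 1643 of 9546 genes (17.2%). Leaving out 1 library gave 0 to 150 genes and 0 to 35 members, all of these calls without EGFP replicate 1. The labels state no pairing of libraries, and the deviations of same-numbered libraries from their genotype means correlated at 0.33 over genes. Members led by clusters 14 or 15 numbered 44 in EGFP replicate 1 and 0 in EGFP replicate 2, where 2 members could be ranked. With nuclei thinned to 200 UMIs it was 36 of 44 ranked. Gland carriers over the 4 libraries numbered 2357 at 3 or more UMIs, beside 1548 at 5, and bulb carriers 1593 at 10 or more UMIs and 1442 after thinning, beside 2657 at 5. With profiles of EGFP replicate 2 alone, 29 nuclei were nearest cluster 14 and 47 nearest cluster 15, against 155 and 85. The cause of these shifts was not tested.

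With 2 libraries a genotype, and 1 control library holding nearly all member UMIs of its genotype, the design cannot separate genotype from library. Counts of 0 in EGFP replicate 2 allow up to 0.765 CPM (3 UMIs).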

Other observations

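The driver transcript *gal4* was listed in the files, at 70.2 and 92.5 CPM in the tsc1,tsc2 libraries, against 45.1 and 83.3 CPM in the EGFP libraries. It had no UMI in the 155 nuclei nearest cluster 14 or the 85 nearest cluster 15, which allows up to 31.0 and 66.97 CPM there (3 UMIs). The limit for cluster 14 lies below the level of every whole library, and that for cluster 15 lies above the level of EGFP replicate 1. In EGFP replicate 1 *gal4* was at 167 CPM in cluster 1 and 184 CPM in cluster 6. The oenocyte markers (*FASN3*, *FASN2* and *geko* among them) summed to 46740 and 32592 CPM there. It was at 6.90 to 35.1 CPM in clusters 0, 2, 3, 4, 5 and 8 and at 62.7 CPM (2 UMIs) in cluster 12. Clusters 7, 9, 10, 11 and 13 of that library had no UMI of *gal4* either, so having none was not particular to clusters 14 and 15.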
